A study of Mus musculus with 16 samples.

Results

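The 9 genes described here, Ifit1, Ifit2, Ifit3, Isg15, Irf7, Bst2, Oasl2, Ifi27 and Usp18, are transcripts that cells switch on in response to type I interferon. They were chosen by name, and all 9 of 40481 genes listed in the counts were found and passed the filter on low counts that left 14949 genes for testing. RNA was sequenced from the brains of 16 male C57BL mice, C57BL/6J by the study's methods, bought at 18 months of age. In the adropin group, 8 mice received adropin(34-76), the secreted stretch of the adropin peptide, at 90 nmol/kg/d by intraperitoneal injection, and in the saline group 8 mice received the saline diluent alone. Injections were daily, had run for 2 weeks when behavioural testing began and went on during it. The 2 questions asked were whether these genes differed between adropin and saline, and whether they rose and fell together from mouse to mouse. Single mice carry the numbers of their titles, such as mouse 8_3.

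Type I interferons are secreted when nucleic acid sensors detect foreign or misplaced DNA or RNA. They bind the receptor made of IFNAR1 and IFNAR2, whose kinases JAK1 and TYK2 start a signal to the nucleus. There a complex that holds STAT2 and IRF9 binds a DNA element, the interferon-stimulated response element (ISRE), in front of the genes it switches on. In the brain such genes are expressed at a low basal level by glia, vascular cells and neurons, and higher levels with age are well known in microglia and choroid plexus. Among the 9, Ifit1, Ifit2 and Ifit3 encode RNA-binding proteins that restrain translation of foreign RNA, and Oasl2 belongs to the 2',5'-oligoadenylate synthetase family. Bst2 (tetherin) holds enveloped viruses at the cell surface, and Isg15 is a small ubiquitin-like protein that is attached to other proteins. Irf7 is the transcription factor that amplifies interferon production. Usp18 removes Isg15 from its targets and also blocks signaling at the interferon receptor, so it is a negative regulator. Ifi27 encodes a small interferon-induced membrane protein.

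Ifit2, Ifit3 and Ifit1 are neighbours and lie in that order on the plus strand of chromosome 19 (GRCm38), at chr19:34550694-34576419, chr19:34583531-34588731 and chr19:34640871-34650009. The other genes are on separate chromosomes: Isg15 at chr4:156199424-156200818, Irf7 at chr7:141262706-141266481, Bst2 at chr8:71534255-71537456, Oasl2 at chr5:114896936-114912234, Ifi27 at chr12:103434211-103440239 and Usp18 at chr6:121245906-121270917. Promoters are shown because the ISRE is the element through which such genes are known to share control. For Ifit2 only the window farthest upstream is printed, and those of Irf7 and Oasl2 are not. The stretches run from 160 to 31 bases before the RefSeq start site (GRCm38.p6), 5' to 3' on the strand of the gene, with each match to the ISRE core GAAANNGAAA, on either strand, in capitals.
Ifit1, chr19:34640729-34640858, plus strand: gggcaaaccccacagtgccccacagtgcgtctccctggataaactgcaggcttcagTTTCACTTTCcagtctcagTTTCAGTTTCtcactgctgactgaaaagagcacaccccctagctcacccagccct
Ifit3, chr19:34583369-34583498, plus strand: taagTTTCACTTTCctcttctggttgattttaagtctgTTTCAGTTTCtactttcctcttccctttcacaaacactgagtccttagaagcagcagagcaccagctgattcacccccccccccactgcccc
Isg15, chr4:156200849-156200978, minus strand: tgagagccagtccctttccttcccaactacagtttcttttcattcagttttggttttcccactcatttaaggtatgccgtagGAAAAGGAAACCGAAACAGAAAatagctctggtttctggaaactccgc
Bst2, chr8:71537503-71537632, minus strand: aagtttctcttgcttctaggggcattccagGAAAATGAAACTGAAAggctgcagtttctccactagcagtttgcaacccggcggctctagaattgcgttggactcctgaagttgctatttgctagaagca
Ifit2, chr19:34550534-34550663, plus strand: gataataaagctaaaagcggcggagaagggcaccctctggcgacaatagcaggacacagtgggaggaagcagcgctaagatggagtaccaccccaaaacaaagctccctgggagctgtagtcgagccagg

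Within 250 bases before the start site, Ifit1 and Ifit3 each held 2 matches to GAAANNGAAA, Isg15 held 3 that overlap each other, and Bst2 held 2 that overlap. In Ifit1 and Ifit3 the matches read TTTCACTTTC and TTTCAGTTTC, the same pair of 10-base words in both promoters, 104 and 85 bases before the start of Ifit1 and 156 and 122 bases before that of Ifit3. No match was found in the windows of Irf7 and Oasl2 or in either of the 2 windows of Ifit2. Of all 32851 promoter windows of this length, 2.98% held a match. The STAT-type motif TTCNNNGAA, which reads the same on both strands and does not overlap the ISRE matches except in Bst2, was found in Bst2 and in one window of Ifit2, and 7.02% of all windows held it. Usp18 and Ifi27 were not among the promoters used. A match is a match of letters only, and binding was not measured. Start sites outside these windows were not searched. Whether a match, or the lack of one, bears on the levels described here was not tested.

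All 9 genes were expressed at low levels in both groups. Levels are given as CPM, the read count relative to the size of the library, which was scaled by the trimmed mean of M-values (TMM), and total counts ran from 35026503 to 70314050 per mouse. Per kilobase of annotated exon, the median level over the 16 mice was highest for Ifi27, at 16.8 CPM, followed by Ifit3 at 5.30, Bst2 at 4.17, Isg15 at 2.74, Ifit2 at 2.23, Ifit1 at 1.34, Irf7 at 0.954, Oasl2 at 0.699 and Usp18 at 0.455. Usp18 was the most thinly counted, with 31 to 105 reads per mouse, so that counting alone gives an error of 9.76% to 18.0% of its level. The other genes had between 49 and 1786 reads per mouse.

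Usp18 was the 1 gene of the 9 whose level differed between adropin and saline at an unadjusted p under 0.05. Its lowest, median and highest levels were 0.733, 1.15 and 1.30 CPM in the adropin mice and 0.889, 1.48 and 2.27 CPM in the saline mice. The groups overlapped, but none of the 8 adropin mice reached the saline median, and the 6 highest levels of all 16 mice were those of saline mice. The mean was 1.09 ± 0.21 CPM (SD, n = 8) with adropin and 1.53 ± 0.46 CPM (SD, n = 8) with saline, a log2 fold change of -0.50 (SE 0.18). An exact two-sided permutation test over all divisions of the mice gave p = 0.0297, and the edgeR quasi-likelihood test gave p = 0.0148. The edgeR adjusted p over all 14949 genes was 0.874, so the difference did not pass correction. Of all genes tested, 3.99% had an edgeR p under 0.05, 2.13% on the lower side, and 3.67% did so by exact permutation, so that 1 of 9 genes is close to the background. No gene had an adjusted p under 0.05 in edgeR, while 596 had an unadjusted p under 0.05.

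The lower Usp18 level was kept under every other model tried except one. Leaving out any 1 mouse gave log2 fold changes of -0.58 to -0.39 with edgeR p from 0.00366 to 0.0398, while the exact permutation p rose above 0.05 without mouse 2_1, 2_4 or 3_3 of the adropin group or 6_1, 6_2 or 8_3 of the saline group, to at most 0.0605. In edgeR with a block for the first number of the title, where 3 numbers and 8 mice carry the contrast, the log2 fold change was -0.08. When the mean level of the other 8 genes was added to the model, the value for Usp18 was -0.47 (SE 0.14, edgeR adjusted p = 0.866). Of the choroid plexus markers, 5 of 5 tested had an edgeR p under 0.05 with fold changes below 0. None had an adjusted p under 0.05, and the median of their summed level was 18.9 CPM with adropin and 21.3 CPM with saline. The count was 2 of 5 without mouse 8_3, 2 of 5 in limma-voom and 0 of 5 in the edgeR fit with a block for the first number of the title. The part of these cells in the Usp18 level was not tested. Fewer cells of a type and less RNA per cell cannot be told apart in whole tissue.

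For the other 8 genes, no difference between the groups was detected. Ifit1 had lowest, median and highest levels of 1.96, 3.26 and 5.99 CPM with adropin and 1.81, 3.73 and 6.93 CPM with saline. The ranges cover each other, and the log2 fold change was -0.11 (SE 0.26, edgeR adjusted p = 0.932). Its neighbour Ifit3 had levels of 6.08, 8.71 and 13.6 CPM with adropin and 6.55, 9.32 and 11.4 CPM with saline, with a log2 fold change of -0.11 (SE 0.15, edgeR adjusted p = 0.885). Mouse 7_4 of the adropin group lay well above all others for Ifit3, with the next adropin mouse at 9.59 CPM. Ifit2 ran from 6.71 through a median of 9.34 to 9.93 CPM with adropin and from 6.08 through 8.69 to 9.05 CPM with saline, a log2 fold change of 0.10 (SE 0.10, edgeR adjusted p = 0.877). For Ifit2, 6 of 8 adropin mice were above the saline median.

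Isg15 levels were 1.33, 2.08 and 3.10 CPM with adropin and 1.11, 2.11 and 2.62 CPM with saline, and the medians are nearly the same. The log2 fold change was 0.07 (SE 0.19, edgeR adjusted p = 0.936). Irf7, the amplifying transcription factor, had levels of 2.49, 3.60 and 5.39 CPM with adropin and 1.95, 3.52 and 5.14 CPM with saline, and a log2 fold change of 0.04 (SE 0.20, edgeR adjusted p = 0.970). Among the antiviral effectors, Oasl2 had levels of 2.76, 4.05 and 5.85 CPM with adropin and 2.49, 4.65 and 5.74 CPM with saline. Here 2 of 8 adropin mice were above the saline median, and the log2 fold change was -0.12 (SE 0.17, edgeR adjusted p = 0.891). Bst2 had levels of 2.75, 3.52 and 4.91 CPM with adropin and 2.13, 3.77 and 8.47 CPM with saline. Its highest value was that of saline mouse 8_3, and the log2 fold change of -0.11 (SE 0.24, edgeR adjusted p = 0.921) became 0.15 without that mouse. Ifi27 levels were 20.7, 25.3 and 29.1 CPM with adropin and 19.4, 24.4 and 34.7 CPM with saline, with a log2 fold change of -0.06 (SE 0.11, edgeR adjusted p = 0.906). For 6 of the 9 genes the fold change was below 0, as it was for 7587 of the 14949 genes tested. The median was -0.11 beside -0.0019 over all genes tested. The directions of the 9 genes are not independent, since most of their levels varied together from mouse to mouse.

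**Figure D1:**
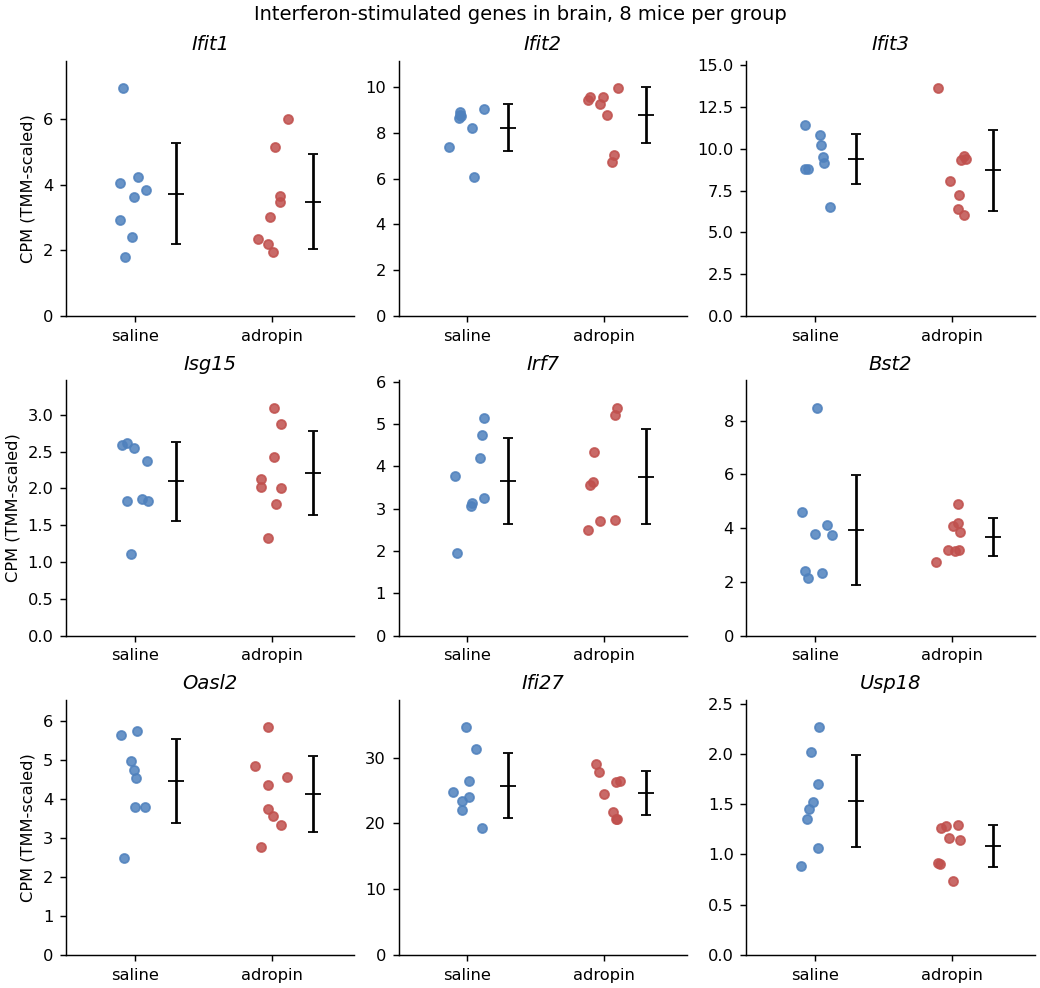
Level of each of the 9 genes in every mouse (vertical axes, TMM-scaled CPM from 0), with saline mice in blue and adropin mice in red, and the mean ± SD of 8 mice as a black bar beside each group. The groups overlap in every panel, and for Usp18 the adropin mice end at 1.30 CPM while saline mice reach 2.27 CPM.

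**Figure D2:**
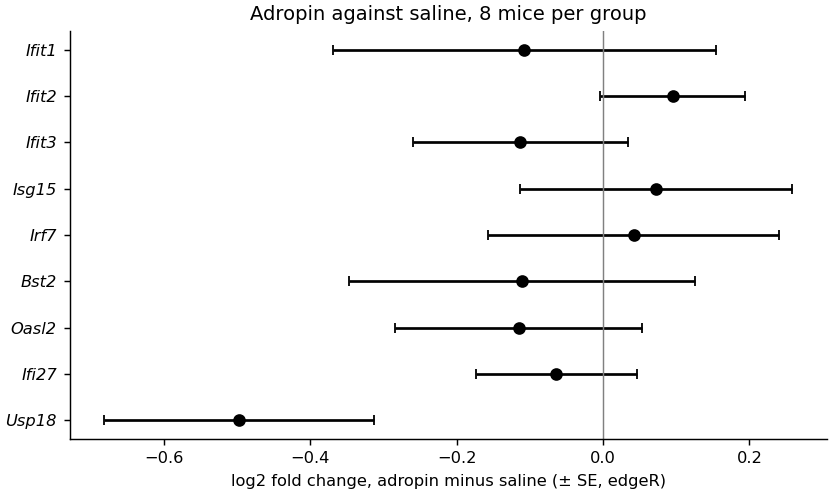
Log2 fold change of each gene, adropin minus saline (horizontal axis, points), with ± SE from edgeR as bars, 8 mice per group. Usp18, at -0.50, is the farthest from 0, and the other genes lie between -0.12 and 0.10.

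The levels varied from mouse to mouse in both groups. From the lowest to the highest mouse, Bst2 spanned 3.98-fold, Ifit1 3.82-fold, Usp18 3.09-fold, Isg15 2.79-fold, Irf7 2.76-fold, Oasl2 2.35-fold and Ifit3 2.24-fold, while Ifi27 spanned 1.79-fold and Ifit2 1.63-fold. The SD of the log2 level within groups was 0.37 for Usp18, beside its log2 fold change of -0.50, and between 0.21 for Ifit2 and 0.57 for Ifit1 over the 9 genes. For Ifit1 this SD was larger than that of 97.4% of genes tested, and for Bst2 it was larger than that of 95.6%. Low counts raise this SD, so the edgeR estimate of biological variation was compared with that of genes of like abundance. The biological coefficient of variation was 35.8% for Ifit1, 32.4% for Bst2 and 27.1% for Irf7, beside trends of 22.1%, 21.7% and 21.9% for genes of their abundance. Ifit2, at 13.9% beside a trend of 17.4%, and Usp18, at 22.9% beside 25.0%, lay below it.

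The same mice tended to be high or low. Saline mouse 8_3 was among the 3 highest mice for 7 of the 9 genes, and adropin mice 7_4 and 4_3 for 5 each. Saline mouse 5_3 was among the 3 lowest for 6 genes, and so was adropin mouse 3_3. Ifit1 measured 6.93 CPM in mouse 8_3 and 1.81 CPM in mouse 5_3, and Irf7 5.14 CPM and 1.95 CPM in the same animals. Both the highest and the lowest mouse for Ifit1 had received saline.

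To measure this, Pearson's r was taken between the log2 levels of each pair of genes over the 16 mice, after subtracting each group's mean. The median r over the 36 pairs was 0.66, and 26 of 36 pairs had an r of at least 0.5, beside 14.1% of all pairs of genes tested. The jackknife error of the median over mice was 0.089. In the adropin mice alone the median was 0.70 and in the saline mice alone 0.64. Every pair among Ifit1, Ifit3, Isg15, Irf7, Bst2, Oasl2 and Usp18 had an r between 0.59 and 0.89, with a median of 0.73 over 21 pairs. The points of these correlations share their libraries and scaling, and the 9 genes were chosen with results of these data known, so no p is given for the group as a whole. The permutation p given below for single pairs carry the same limits. They are not adjusted over the 36 pairs and serve as description only.

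The closest pair was Ifit1 and Ifit3, whose r was 0.892 and Spearman's rho 0.900 (permutation p = 2e-05 and 3e-05, within groups). The r was 0.931 in adropin mice, 0.883 in saline mice and 0.884 without the 2 mice farthest from the median of Ifit1. Among 14948 other genes, Ifit3 had the highest r with Ifit1, and Ifit1 the highest with Ifit3. Ifit1 was the 1 gene of 14948 (0.00669%) that followed the level of Ifit3 at an adjusted p under 0.05 (limma adjusted p = 0.0226, slope above 0). In the fit on the level of Ifit1, Ifit3 had a limma adjusted p of 0.0571 and did not pass.

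Irf7 was nearly as close to both, with an r of 0.862 with Ifit3 (rho 0.874, permutation p = 6e-05 and 0.00014) and of 0.856 with Ifit1 (rho 0.891, permutation p = 0.00017 and 8e-05). Without the 2 mice farthest from the median of the first gene of each pair, these were 0.871 and 0.788. Isg15 had an r of 0.836 with Ifit1 and of 0.824 with Irf7 (permutation p = 0.00014 and 0.0003). Bst2 had an r of 0.805 with Ifit1 (rho 0.835, permutation p = 9e-05 and 0.0003), which was 0.674 without the farthest 2 mice. Among the 9 genes, Usp18 had its highest r with Ifit1, at 0.785 (rho 0.806, permutation p = 0.00058 and 0.00043), and Oasl2 with Irf7, at 0.756 (rho 0.712, permutation p = 0.00189 and 0.00399). Of the 72 ordered pairs, the partner was among the 10 genes with the highest r in 13 and among the highest 149 genes, which is 1% of those tested, in 35. None of those 35 involved Ifit2.

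Ifit2 was only weakly related to Ifit1 and Ifit3. Its r was 0.052 with Ifit1 (rho 0.103, permutation p = 0.851 and 0.709) and 0.325 with Ifit3 (rho 0.444, permutation p = 0.250 and 0.0979). Without the 2 mice farthest from the median of Ifit1 the first was -0.003, and without the 2 farthest from that of Ifit2 the second was 0.568. With Ifi27 it was -0.565 and rho was -0.315 (permutation p = 0.0263 and 0.242). This r was below 0 in both groups, at -0.443 in adropin and -0.687 in saline mice, and was -0.667 without mouse 8_3. Without mice 5_4 and 4_3, the 2 farthest from the median of Ifit2, it was -0.178, so its size rests on those mice. In the fit on the level of Ifit2, Ifi27 had a slope below 0 (limma adjusted p = 0.0498), as did 12.5% of all genes. In mouse 4_3, for example, Ifit1 was the third highest of 16 at 5.16 CPM while Ifit2 was the second lowest at 6.71 CPM. The lowest Ifit2 level, 6.08 CPM in mouse 5_4, came with the highest Ifi27 level, 34.7 CPM.

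**Figure D3:**
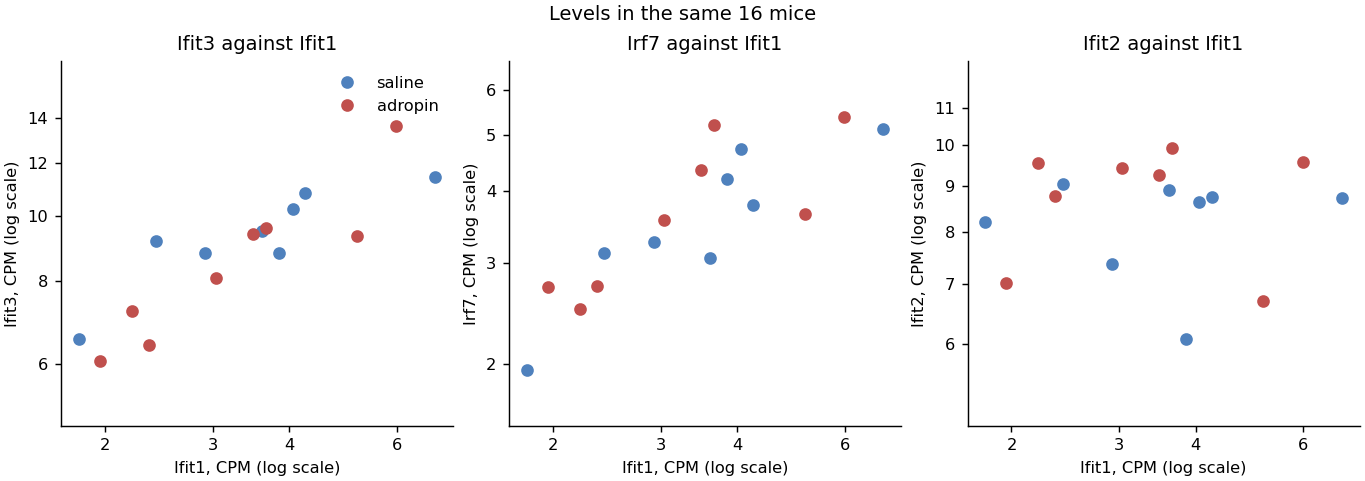
Ifit3, Irf7 and Ifit2 (vertical axes) against Ifit1 (horizontal axes) in CPM on log scales, 1 point per mouse, saline in blue and adropin in red. Ifit3 and Irf7 climb with Ifit1 in both groups, with r of 0.892 and 0.856 within groups, whereas Ifit2 shows no such slope, with r of 0.052.

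Ifit2 and Ifi27 both moved with a pattern shared by much of the transcriptome, in opposite directions. The first principal component of the 14949 genes, with group means subtracted, held 33.9% of the variance, and its r was 0.81 with Ifi27 and -0.80 with Ifit2. For the other 7 genes it lay between 0.12 for Ifit3 and 0.59 for Isg15. At an adjusted p under 0.05 in limma, 2850 genes (19.1%) followed the level of Ifit2 with a slope above 0 and 2253 genes (15.1%) that of Ifi27. With a slope below 0 there were 1871 genes for Ifit2 and 2793 for Ifi27. Among those with a slope above 0 on Ifi27 were Bst2, Isg15 and Ifit1 (limma adjusted p = 0.0114, 0.0145 and 0.0185). Bst2 had 96 genes with a slope above 0 (0.642%), with Ifit1 among them (limma adjusted p = 0.0430), and 23 with one below 0. Irf7 had 1 with a slope above 0, and Ifit1, Isg15, Oasl2 and Usp18 had 0 in either direction. With Ifit1 on Ifit3, 5 ordered pairs of the 9 genes passed with a slope above 0, apart from Ifi27 on Ifit2 with one below 0. Between 3 and 19 passed with a slope above 0 when each mouse was left out. There were 12 or more without mouse 3_3, 6_1 or 7_4 and 3 without mouse 2_1, 2_4, 5_3 or 8_3. Genes with an r of at least 0.5 with Ifit2 had a median exonic length of 6352 bases, and those with an r of at most -0.5 one of 2620 bases, beside 4322 bases over all genes tested. For Ifi27 the order was the reverse, with 2434 and 6686 bases. The other 7 genes ran the same way as Ifi27, with 2450 and 7232 bases for Isg15 and 3199 and 5024 bases for Ifit3, for example. The first component also had an r of -0.62 with the log2 share of reads of Gm42418, a gene model that holds ribosomal RNA sequence, and of -0.33 with the log2 total count. Its source was not tested.

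With the first component removed, an alternative chosen after seeing the data, the r of Ifit2 with the other genes rose. It became 0.80 with Ifit1, 0.73 with Irf7, 0.72 with Ifit3, 0.68 with Bst2 and 0.65 with Isg15, and 6 of its 8 pairs were at least 0.5, beside 8.46% of all pairs of genes tested at that setting. The 2 mice with the highest scores on this component were 5_4 and 4_3, at 0.545 and 0.486, which were also the 2 lowest for Ifit2. Leaving out these mice in place of removing the component, also chosen after seeing the data, gave an r of Ifit2 of 0.454 with Ifit1, 0.568 with Ifit3 and 0.419 with Irf7, and 0.097 with Bst2. With the first component removed and all mice kept, the pairs among the 7 genes had a median of 0.71, with Ifit1 and Ifit3 at 0.95. At this setting Ifi27 moved the other way from Ifit2, with 3 of 7 pairs at 0.5 or above in place of 5. Over all 36 pairs the median was 0.67, and 0.63 with the first 2 components removed. Before any component was removed, Ifit2 levels had an r of 0.71 with Ifit3b, a further gene of the cluster. At that setting 25.8% of genes tested had an r of at least 0.5 with Ifit2.

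**Figure D4:**
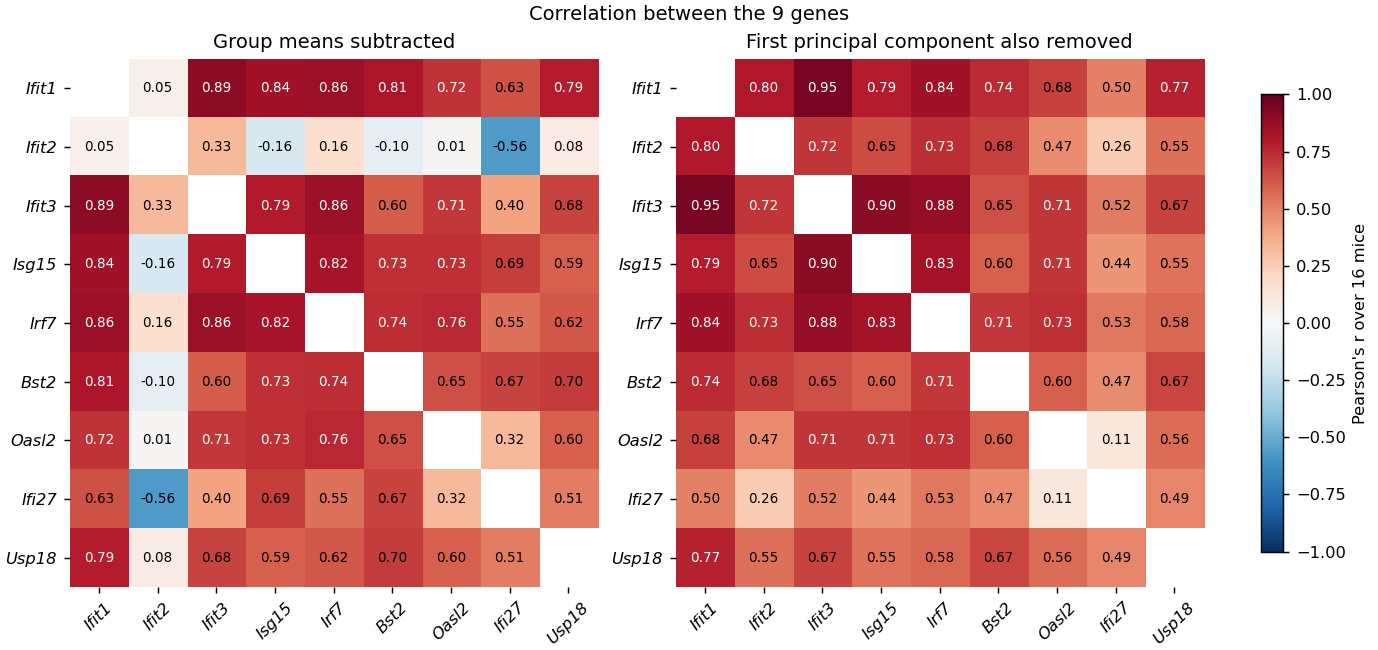
Pearson's r between the 9 genes over 16 mice, with group means subtracted (left) and with the first principal component of all genes tested also removed (right), on a color scale from -1 (blue) to 1 (red). On the left the Ifit2 row is pale or blue, from -0.56 to 0.33, and on the right it is red throughout, from 0.25 to 0.80.

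The genes of the pathway around these 9 were then examined by their roles. None of the 16 interferon ligand genes passed the filter, and all of them together had 24 reads over all 16 mice, 8 of them none at all. Ifnb1 had no read in any mouse, and Ifng had at most 2 reads in one. No difference was detected in the receptors, with log2 fold changes of 0.07 for Ifnar1 and 0.08 for Ifnar2 (edgeR adjusted p = 0.877 for both), -0.01 for Ifngr1, 0.02 for Ifngr2 and -0.05 for Il10rb. Of 102 pathway genes tested of 145 in the counts, 1 had a p under 0.05, beside the 3.99% of all genes, and 46 had a fold change below 0 with a median of 0.01.

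That gene was Irf9, which binds the ISRE together with STAT2. Its lowest, median and highest levels were 7.84, 9.56 and 10.7 CPM with adropin and 7.98, 11.6 and 13.9 CPM with saline. The groups overlapped, and the log2 fold change was -0.26 (SE 0.10), with an exact permutation p of 0.0292 beside 0.0154 in edgeR and an edgeR adjusted p of 0.874, which did not pass correction. In the edgeR fit with a block for the first number of the title it was -0.08, with the second -0.23, and neither had a p under 0.05. The r of Irf9 was 0.61 with Usp18 and between 0.08 for Ifit2 and 0.64 for Oasl2 with the other 8 genes. Stat2 had a log2 fold change of -0.07, with an exact permutation p of 0.400. The kinases Jak1, Jak2 and Tyk2 had log2 fold changes of 0.11, 0.06 and -0.01, with an exact permutation p of at least 0.260.

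Over the mice, the signaling genes differed in their mean r. Irf9 and Stat2 had mean r with the 9 genes of 0.48 and 0.36, whereas those of Jak2 and Jak1 were -0.26 and -0.34. Over all genes tested the median of this mean r was -0.0034, with 10% of genes above 0.35 and 1% above 0.51. Among the receptors Il10rb had 0.47 and Ifnar2 0.30, and Ifnar1 had -0.16. Of the interferon regulatory factors Irf1 had 0.45, Irf3 0.36, Irf5 0.21, Irf8 -0.10 and Irf2 -0.21, and the smallest exact permutation p for treatment among these 5 was 0.127, for Irf8. The ISG15 conjugation genes Uba7, Ube2l6 and Herc6, which encode the activating, conjugating and ligase enzymes, had 0.42, 0.31 and 0.03.

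Further downstream, the median mean r was 0.46 over 12 interferon gamma and MHC class II genes tested of 18, 0.37 over 17 MHC class I presentation genes and 0.26 over 35 tested of 53 other type I interferon-stimulated genes. A mean r of at least 0.3 was reached by 10 of those 12 genes, 14 of 17 and 17 of 35, beside 15.4% of all genes tested. With the first principal component removed, the medians of these lists were 0.51, 0.41 and 0.42, beside 0.02 over all genes. At that setting the median was 0.18 for the nucleic acid sensors and 0.04, the lowest of the lists, for the negative regulators. By list, the 2 highest were, among the other type I interferon-stimulated genes, Rtp4, an interferon-induced receptor chaperone, at 0.65 and Ifitm3, which blocks viral entry, at 0.64. For MHC class I they were B2m, its light chain, at 0.58 and the peptide transporter Tap2 at 0.47, and for the interferon gamma list the GTPases Iigp1 at 0.55 and Gbp7 at 0.53. Ifitm3 was the 1 gene that followed the level of Irf7 (limma adjusted p = 0.0427). The nucleic acid sensors had a median of 0.05 over 14 genes, led by Dhx58 at 0.53 and Cgas at 0.33, and the negative regulators one of 0.16 over 5 genes, led by Socs3 at 0.27 and Ptpn2 at 0.20. The genes with the smallest edgeR p in these lists did not pass that test. Isg20, an exonuclease, had a log2 fold change of 0.43 (exact permutation p = 0.0828) and Pml one of 0.15 (exact permutation p = 0.164). The sensors Cgas and Dhx58 were at -0.27 each (exact permutation p = 0.0855 and 0.139), Irgm2 at 0.20 and Gbp4 at 0.29 (exact permutation p = 0.132 and 0.272), Tap1 at 0.14 and Psme1 at -0.12 (exact permutation p = 0.107 and 0.244), and Ptpn6 and Trim24 at -0.05 each (exact permutation p = 0.379 and 0.559).

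**Figure D5:**
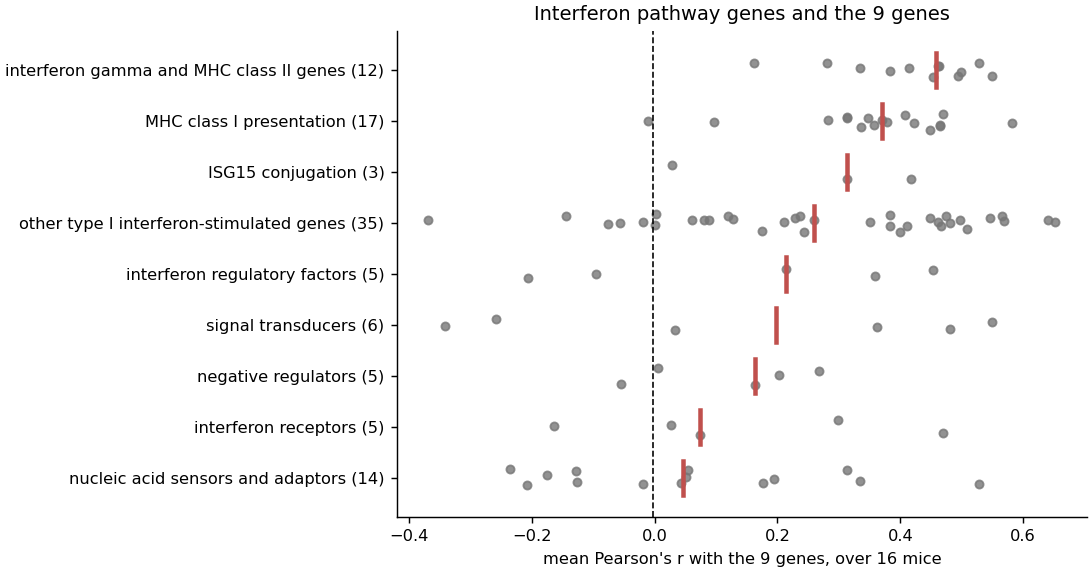
Mean Pearson's r of each pathway gene with the 9 genes over 16 mice (horizontal axis, 1 grey point per gene tested), by list, with the number of genes tested in brackets, the list's median as a red bar and the median of all 14949 genes as a dashed line. With no component removed, interferon gamma and MHC class II genes have the highest median, 0.46, and nucleic acid sensors the lowest, 0.05.

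Over the whole transcriptome, the 10 other genes with the highest mean r were Rtp4, Serp1, Ifitm3, Stom, Bdh2, Hexim1, Tax1bp3, Ly86, Pla2g7 and Camk2n2, from 0.65 to 0.60. Of these, Rtp4 and Ifitm3 are on the pathway lists. Among the 149 genes with the highest mean r, 10 were pathway genes, which make up 0.683% of the genes ranked. With the first principal component removed there were 18, and the genes with the highest mean r were then led by Ifit3b at 0.73. For single genes of the 9, the 3 highest partners, in falling order, were Ifit3, Bdh2 and Irf7 for Ifit1, from 0.89 to 0.86, and Ifit1, Gbp7 and Irf7 for Ifit3, from 0.89 to 0.86. Irf7 had Ifitm3, Ifit3 and Ifit1, from 0.88 to 0.86, and Oasl2 had Stom, Camk2n2 and Sp100, from 0.87 to 0.81. Of these, Gbp7, Ifitm3 and Sp100 are on the pathway lists, and Bdh2, Stom and Camk2n2 are not. The partners of Ifit2 were Msi2, Cpeb2 and Ubxn2a, from 0.93 to 0.92, and those of Ifi27 were Rpl22, Lamtor2 and Cox8a, all at about 0.93, none of them on the lists. Bst2 had Chpt1, Selenos and Pla2g7, from 0.92 to 0.90, Isg15 had Camk2n2, Ly86 and Krt12, from 0.88 to 0.85, and Usp18 had Rnft1, Hk3 and Ifit1, from 0.81 to 0.79.

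Markers of cell types a brain sample may hold were read beside these levels. Neuron markers summed to between 5655 and 7196 CPM in every mouse, as the label brain requires, and every marker on the lists had at least 1 read. Choroid plexus markers summed to 11.9 to 74.5 CPM with adropin and 13.5 to 2470 CPM with saline. The top value was that of mouse 8_3, the highest mouse for Ifit1 and Bst2, and its cerebellum markers were also the highest, at 406 CPM, with the next saline mouse at 36.0 CPM. Of the 2 cerebellum markers tested, Car8 had an edgeR p under 0.05 (0.0338, adjusted 0.874). Its median level was 5.81 CPM with adropin and 5.33 CPM with saline, and its highest was 91.7 CPM in mouse 8_3. The log2 fold change of -1.40 turned to 0.20 without that mouse. The r of the cerebellum sum with Bst2 was 0.68, and 0.07 without mouse 8_3. The r of the choroid plexus sum was 0.70 with Bst2, 0.65 with Ifi27 and 0.52 with Ifit1. Without mouse 8_3 these were 0.32, 0.63 and 0.25, the r with Ifit2 went from -0.27 to -0.62, and the median r over the 36 pairs of genes was 0.64.

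Microglia markers, all 10 of them tested, summed to 367 to 473 CPM with adropin and 355 to 408 CPM with saline. Their summed level had an r between 0.10 for Usp18 and 0.44 for Irf7. The single markers differed, with an r with Irf7 from -0.24 for P2ry12 to 0.72 for C1qa. Of the 10 markers, 1, Cx3cr1, had an edgeR p under 0.05, with a higher level in adropin mice and an edgeR adjusted p of 0.874. The border macrophage sum, over 5 markers with 4.90 to 11.4 CPM with adropin and 4.23 to 9.12 CPM with saline, had an r of 0.59 with Bst2 and 0.46 with Usp18. Of its 4 markers tested, Mrc1 had an edgeR p under 0.05, with a higher level in adropin mice and an edgeR adjusted p of 0.874. The share of all genes with such a p was 3.99%. The meningeal fibroblast sum, over 5 markers with 43.2 to 123 CPM with adropin and 42.0 to 101 CPM with saline, had an r of 0.56 with Oasl2 and 0.51 with Isg15. The endothelial sum, over 7 markers with 196 to 278 CPM with adropin and 202 to 245 CPM with saline, had its highest r with Irf7, at 0.67. Its single markers differed, with an r with Irf7 from 0.03 for Kdr to 0.72 for Ly6c1. The ependyma sum, over 4 markers with 5.74 to 14.6 CPM with adropin and 6.55 to 20.7 CPM with saline, had an r of 0.82 with Ifi27 and 0.61 with Ifit1. The first principal component had an r of 0.57 with this sum and 0.62 with the choroid plexus sum. Of all genes tested, 20.7% had an r of at least 0.5 with Ifi27. For Ifit2 the highest r with any of these sums were 0.67 with neurons, 0.66 with pericytes and 0.61 with astrocytes. Without mouse 8_3 they were 0.67, 0.69 and 0.63. Single pericyte markers had an r with Ifit2 from -0.11 for Vtn to 0.89 for Pdgfrb. The first principal component had an r of -0.55 with the neuron sum, -0.38 with the pericyte sum and -0.36 with the astrocyte sum. Of all genes tested, 25.8% had an r of at least 0.5 with Ifit2. The pericyte sum, over 5 markers, ran from 188 to 226 CPM with adropin and 193 to 244 CPM with saline, and 1 of the 5, Rgs5, had an edgeR p under 0.05 (0.0345, adjusted 0.874), with a log2 fold change of -0.16. Astrocyte sums, over 6 markers, ran from 1598 to 1941 CPM with adropin and 1537 to 2036 CPM with saline. The erythroid sum, over 5 markers with 96.9 to 686 CPM with adropin and 143 to 525 CPM with saline, had an r of 0.57 with Bst2 and 0.53 with Ifi27. Oligodendrocyte sums had no r above 0.36 with any of the 9 genes. T cell and neutrophil sums, of 8 and 5 markers, stayed under 5 CPM except in adropin mouse 1_3, whose neutrophil sum was 8.38 CPM. The part of these cells in the shared variation was not tested.

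Some of the counts could hold or miss reads of other genes. Only reads with 1 alignment and 1 gene were counted. The Ifit3 transcript matches that of Ifit3b at 97.8% over 1700 of 1745 bases, so the split of reads between them is uncertain, and their r was 0.73. Irf7 shares exonic bases with Phrf1 on the opposite strand, whose 1715 to 4231 reads per mouse exceed the 86 to 352 of Irf7. The strand setting of the counting is not given in the sources used here, and the r between Irf7 and Phrf1 was -0.19. Usp18 shares exonic bases with Gm44148 on the opposite strand, whose counts were not analysed here. Isg15 matches the gene model AC151275.1 at 95.2% over 482 of 756 bases, which was not analysed here either.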

How the data were processed

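RNA-seq of brain was deposited for 16 mice, each mouse being 1 replicate, 8 per group by their treatment labels. The authors selected poly-A RNA, sequenced paired ends of 150 bases, used STAR for alignment to Ensembl release 76 (primary assembly) and counted uniquely aligned, unambiguous reads per gene with featureCounts; the deposited counts are whole reads per gene, not normalized. A table of CPM was also deposited and was not used. Here, 276 repeated entries and 355 rRNA genes were left out, TMM factors were computed, and 14949 genes passed a filter of over 1 CPM in no fewer than 7 mice. Adropin was compared with saline by the quasi-likelihood test of edgeR 4.0.16 (R 4.3.3) with Benjamini-Hochberg adjustment over all genes tested, and by exact permutation of mice. Log2 CPM with a prior count of 2 served correlations, whose permutation p came from 100000 shuffles within groups, and the slope of every gene on each of the 9 levels was fitted with limma 3.58.1, with treatment as a term. DESeq2 1.42.0, limma-voom, other scalings, filters, prior counts, blocks by label number and leaving out each mouse were alternatives. Scripts were tested on simulated data. The 9 genes, the pathway and marker lists were chosen with earlier results of these data known. All 9 genes are named, as are the 10 other genes with the highest mean r, the 3 highest partners of each gene, ligands, receptors, signal transducers, regulatory factors and ISG15 conjugation genes, and from every other list the 2 genes with the smallest p and the 2 with the highest mean r; 1 signal transducer is not reported here. Total counts of 35026503 to 70314050 per mouse give Usp18 as few as 31 reads. Counting intervals cover counting error only. Exonic length, overlaps and positions are from GENCODE M21 (GRCm38), and promoters from RefSeq.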

Additional observations from a re-analysis of the deposited data

Results flagged for a closer look

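Both values here lay far from the rest of their group, with a gap to the nearest mouse, divided by the range of the 8 mice, above the critical value of 0.526. Chance flags about 1 group in 20, and 18 groups of 8 mice were examined. Ifit3 in adropin mouse 7_4 measured 13.6 CPM, with the next adropin mouse at 9.59 CPM and a ratio of 0.533. Without this mouse the log2 fold change of Ifit3 went from -0.11 to -0.23. Mouse 7_4 was also the highest adropin mouse for oligodendrocyte markers, at 8024 CPM with the next at 5102 CPM. The same held for ependyma markers, at 14.6 and 9.45 CPM, and T cell markers, at 4.07 and 1.81 CPM. The part of these cells in its Ifit3 level was not tested. Bst2 in saline mouse 8_3 measured 8.47 CPM, with a ratio of 0.611. Without it the log2 fold change of Bst2 went from -0.11 to 0.15. Mouse 8_3 was also the highest for choroid plexus markers, at 2470 CPM with the next saline mouse at 330 CPM, and the part of these cells in its Bst2 level was not tested.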

How the results depend on the processing

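Of the 9 genes, 1 had an unadjusted p under 0.05 in limma-voom, in DESeq2, and in edgeR with library sizes as the only scaling, with the size factors of DESeq2, with no filter on low counts, with a replicate block for the second number of the title, and without any 1 mouse. With a replicate block for the first number there were 0, and Usp18 was at -0.08 on the log2 scale. What these numbers stand for is not given in the sources used here, and the cause was not tested. By exact permutation the count was 0 to 1 when each mouse was left out. The count of pathway genes went from 1 to 4 without the filter, to 5 with the block for the first number and to 0 with that for the second, and to between 1 and 3 without single mice. Of 216 alternative fold changes of the 9 genes, 200 kept their direction and their side of the threshold and 15 turned in direction, none of these past the threshold. With the replicate block for the first number, the log2 fold change was 0.131 for Ifit1, 0.0373 for Ifit3, 0.15 for Bst2 and 0.010 for Ifi27, and with that for the second it was -0.0585 for Irf7. With the mean level of the other 8 genes as a term, chosen after seeing the data, Ifit1 was at 0.0196 and Bst2 at 0.0759. Without single mice, Ifit1 ranged from -0.26 to 0.0825, Isg15 from -0.0152 to 0.157, Irf7 from -0.0465 to 0.129, Bst2 from -0.196 to 0.15 and Ifi27 from -0.114 to 0.00845. The median correlation was 0.785 with the replicate block for the first number over 14 mice, ranged from 0.589 to 0.689 without single mice, was 0.579 without mice 5_3 and 8_3, the farthest from the median, and lay between 0.631 and 0.703 under the other alternatives. Ordered pairs of the 9 genes in which one followed the other with a limma adjusted p under 0.05 and a slope above 0 numbered 5, and from 3 to 19 without single mice. Of the 9 genes, Usp18 had the fewest reads, 31 to 105 per mouse, where counting error is 9.76% to 18.0% of the level.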
